A study of Mus musculus with 2 samples.

Results

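The 32 genes described here encode proteins of glycolysis and of the response to low oxygen. They were taken by gene symbol from 32285 genes measured in single immune cells of young mouse skin, and all 32 symbols were found. They comprise 3 glucose and lactate carriers, 9 genes of upper glycolysis, 6 genes of lower glycolysis, 3 genes of oxygen sensing and 11 other genes known to be induced by low oxygen. Skin of wild-type C57BL/6 mice was digested with collagenase on postnatal day 15, and live CD45+ cells were sorted and profiled by droplet-based 3′ RNA sequencing with unique molecular identifiers (UMIs). The mice of 1 group had received anti-Gr-1, an antibody that binds Ly6G and Ly6C on neutrophils and monocytes, and those of the other an isotype control antibody, on alternate days from postnatal day 4 to 14. Each group was a pool of 4 to 7 mice and gave 1 library, so the treatment and the library cannot be told apart and differences between them carry no test.

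Cells take up glucose through carriers of the Slc2a family, and hexokinases trap it as a phosphate. Glycolysis then splits the sugar and makes ATP in its lower steps, and lactate dehydrogenase turns pyruvate into lactate, which leaves through Slc16a3. When oxygen is ample, prolyl hydroxylases of the Egln family mark the transcription factor HIF-1α for destruction; when oxygen is scarce it persists, binds a short DNA motif and switches on many of the genes listed here. Activated T cells and neutrophils are known for high glycolytic flux, and growth signals raise the same genes with no lack of oxygen.

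A core form of the HIF motif is ACGTG, the only form counted here. It was searched on both strands in RefSeq promoter windows of 300 bases (250 before and 50 after each start, build GRCm38.p6, the assembly also called mm10). Of the 32 genes, 29 matched an entry; Slc2a3, Bnip3l and Ndrg1 had none. At least 1 match stood in the best window of 23 of the 29 (79.31%), against 5886 of 27025 genes with a window (21.78%) and 2300 of 7493 genes with at least 1000 UMIs in these libraries (30.7%). At least 2 matches were found for 10 of the 29 (34.48%), against 9.28% of all genes. CACGTG reads the same on both strands and so counts as 2 matches. In windows, the share was 25 of 41 for these genes (60.98%) and 6447 of 32851 for all genes (19.62%). The windows of Gpi1, Pfkl, Pfkp, Tpi1, Eno1 and Pdk1 held no ACGTG. Other forms of the motif were not searched and may stand there. A match is a run of letters and does not show that the factor binds there.

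The 250 bases before the start are printed for 6 genes that the results turn on and whose stretch overlaps no annotated exon. The first 5 were chosen with their matches known, and Gapdh is shown as a gene with no ACGTG there. They are written 5′ to 3′ on the gene's strand, in lower case with ACGTG on either strand in capitals. Ldha (chr7:46845554-46845803, plus strand, inside the gene's annotated span) held 5 matches. Pgk1 (chrX:106186850-106187099, plus strand, directly upstream of the gene) held 2. Hk2 (chr6:82774455-82774704, minus strand, directly upstream) held 2. Hif1a (chr12:73907617-73907866, plus strand, inside the gene's span) held 3. Egln3 (chr12:54203875-54204124, minus strand, upstream) held 1. Gapdh (chr6:125165774-125166023, minus strand, inside the gene's span) held none in these bases and 1 in the 50 after the start. Eno1 and Mif, the other 2 genes higher in all 10 classes, also held none before the start, and Mif held 1 after it. Other genes with none before the start went either way in the anti-Gr-1 library. Hk1, Pfkp and Aldoc were lower in 8 of 10 classes and Pfkl and Tpi1 higher in 7, while Gpi1, Pdk1 and Higd1a were more evenly split.
Ldha: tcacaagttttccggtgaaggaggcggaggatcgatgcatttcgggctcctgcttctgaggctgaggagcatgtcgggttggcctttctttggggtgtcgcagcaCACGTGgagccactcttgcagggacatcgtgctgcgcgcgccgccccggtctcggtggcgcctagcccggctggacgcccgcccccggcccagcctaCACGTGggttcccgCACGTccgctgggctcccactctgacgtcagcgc
Pgk1: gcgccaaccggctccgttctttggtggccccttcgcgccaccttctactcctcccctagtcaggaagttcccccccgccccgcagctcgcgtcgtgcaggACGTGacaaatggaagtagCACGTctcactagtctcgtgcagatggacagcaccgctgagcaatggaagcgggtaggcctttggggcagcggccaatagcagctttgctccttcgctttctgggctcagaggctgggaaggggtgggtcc
Hk2: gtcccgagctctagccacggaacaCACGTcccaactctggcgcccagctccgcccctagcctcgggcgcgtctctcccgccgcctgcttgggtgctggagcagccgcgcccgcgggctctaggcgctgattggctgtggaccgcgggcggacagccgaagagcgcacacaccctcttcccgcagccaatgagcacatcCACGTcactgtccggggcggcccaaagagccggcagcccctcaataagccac
Hif1a: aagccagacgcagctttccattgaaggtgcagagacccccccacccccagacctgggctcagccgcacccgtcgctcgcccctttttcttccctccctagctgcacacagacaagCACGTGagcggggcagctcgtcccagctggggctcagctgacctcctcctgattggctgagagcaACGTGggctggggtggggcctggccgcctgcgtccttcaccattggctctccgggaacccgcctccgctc
Egln3: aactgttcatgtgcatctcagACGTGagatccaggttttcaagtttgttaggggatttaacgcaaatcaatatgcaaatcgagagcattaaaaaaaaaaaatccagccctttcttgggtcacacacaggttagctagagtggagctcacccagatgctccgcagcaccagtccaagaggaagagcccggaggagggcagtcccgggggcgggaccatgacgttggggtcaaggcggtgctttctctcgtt
Gapdh: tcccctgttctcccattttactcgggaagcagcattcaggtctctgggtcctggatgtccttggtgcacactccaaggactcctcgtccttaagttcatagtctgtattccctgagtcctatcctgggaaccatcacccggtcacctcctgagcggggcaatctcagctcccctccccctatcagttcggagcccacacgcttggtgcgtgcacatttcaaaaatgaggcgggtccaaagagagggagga

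The isotype control library held 21311 barcodes with a median of 4460 UMIs, and the anti-Gr-1 library 9110 with a median of 7463. After filters and removal of scored doublets, 16487 and 7574 cells were kept, with 103099326 and 74673921 UMIs. The libraries share 61 barcode sequences. Cells with Xist and no Y-linked UMIs numbered 5714 and 1441, and those with Y-linked and no Xist UMIs 5373 and 4347, so male cells made up a larger share of the anti-Gr-1 library than of the isotype control library. Marker genes placed 10512 and 6057 cells in 20 classes; mixed cells (2499 and 401) and cells that met no gate were left out. A class is named for its markers with "-like", or by its genes where these fit no named type (Retnla Lpl Fn1 phagocytes and Hlf Bmp2 lymphoid cells). DETC stands for dendritic epidermal T cell, Treg for regulatory T cell, ILC2 for group 2 innate lymphoid cell, and DC1 and DC2 for type 1 and type 2 dendritic cell. Ptprc, the gene of CD45, was found in every one of the 15 classes with at least 20 cells in both libraries, at no less than 330.4 CPM (counts per 1000000 UMIs of the class) in the isotype control library and 273.3 after anti-Gr-1, in mature dendritic cell-like cells in both. Langerhans cell-like cells carried RNA of non-immune cells. A sum of 10 markers of keratinocytes, fibroblasts, endothelial cells and red cells stood at 824 and 938 CPM there.

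Throughout, the isotype control value is given first and the anti-Gr-1 value second. A level is the gene's CPM, its UMIs scaled to the UMIs of all cells of a class in 1 library, and its 95% interval is exact Poisson. A ratio is anti-Gr-1 over isotype control with an exact conditional 95% interval. These intervals cover counting error only, not the spread between mice. Levels are compared between classes within a gene. UMIs of 3′ ends do not rank genes by transcript number.

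Treg-like cells carried the largest summed level of the 32 genes among the 10 classes with at least 100 cells in each library, at 5933 CPM (5829.9 to 6038) in the isotype control and 6687 (6557 to 6819) in the anti-Gr-1 library. The next of the 10 in both libraries were CD4 T cell-like cells, at 4336 and 4550, so that the Treg-like sum was 1.37 and 1.47 times theirs. Hlf Bmp2 lymphoid cells stood at 3916 and 4167, γδ type 17 T cell-like cells at 3864 and 4109, Retnla Lpl Fn1 phagocytes at 3475 and 3863, mast cell-like cells at 3382 and 3455 and DETC-like cells at 3288 and 3390. Both dendritic classes lay close together, DC2-like cells at 2950 and 2985 and DC1-like cells at 2885 and 2994. Macrophage-like cells had the lowest sum of the 10, at 2121 (2079 to 2163) and 1975 (1920.1 to 2030.1). The plot of summed levels shows this order with its intervals.

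Of the smaller classes, the 139 neutrophil-like cells of the isotype control library stood at 6182 CPM (5900 to 6474). This value was above that of its Treg-like cells, but the intervals of the 2 classes overlapped. Only 9 neutrophil-like cells were found in the anti-Gr-1 library, at 7154 (6525 to 7827). ILC2-like cells reached 4797 and 4501, basophil-like cells 4410 and 4298, non-classical monocyte-like cells 3684 and 3990, Langerhans cell-like cells 2959 and 2947 and mature dendritic cell-like cells 2396 and 2440. The 240 classical monocyte-like cells of the isotype control library stood at 4062 and the 15 of the anti-Gr-1 library at 4937. Dividing cells were unevenly spread over the classes: a sum of 12 cell cycle genes was 1761 and 1595 CPM in Treg-like cells, 2002 and 2011 in CD4 T cell-like cells, 1499 and 1822 in Hlf Bmp2 lymphoid cells and 696 and 691 in macrophage-like cells. Among cells of the isotype control library without a UMI of 6 cell cycle genes, the Treg-like sum was 1.49 times that of the next class. This setting was added after the data were seen, and a cell without these UMIs may still be dividing. The part of dividing cells in the order of the classes was not tested.

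**Figure D1:**
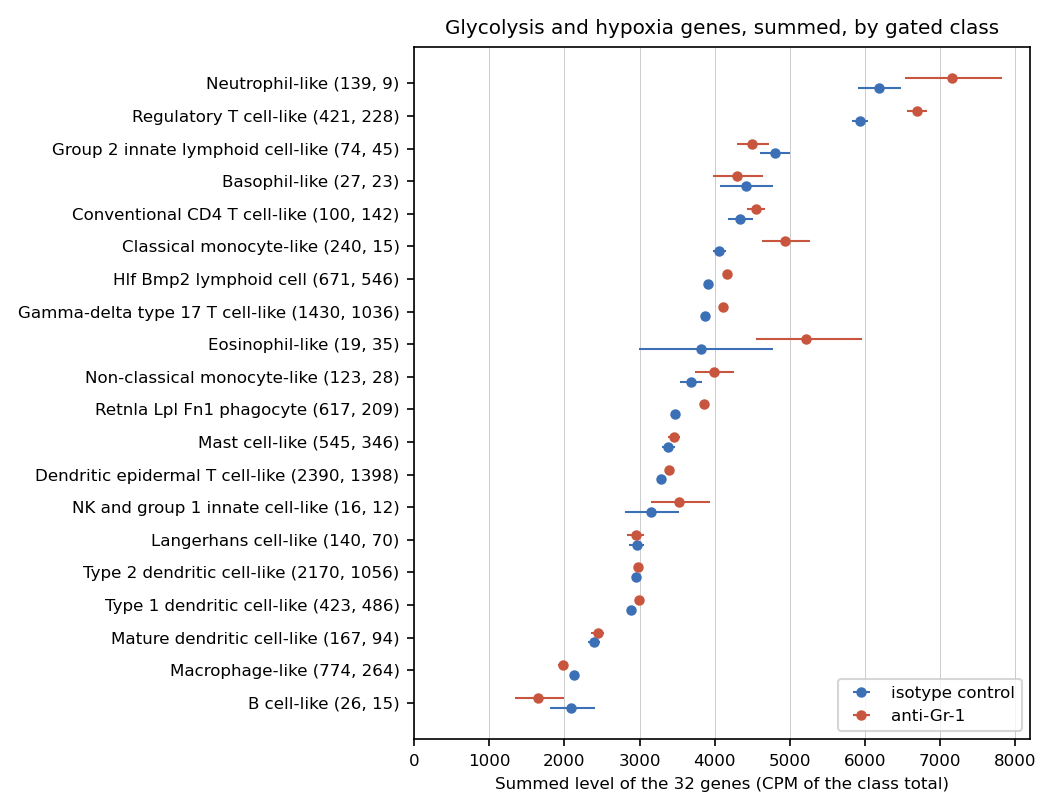
Summed level of the 32 genes (x axis, CPM of the class total) in each of 20 gated classes (y axis, with the number of cells in the isotype control and the anti-Gr-1 library), points with exact Poisson 95% intervals. Treg-like cells lie at 5933 and 6687 CPM and macrophage-like cells at 2121 and 1975; classes with few cells have wide intervals.

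Treg-like cells held the highest level in both libraries for 12 of the 32 genes, compared over the 15 classes with at least 20 cells in each. These were Pfkl, Aldoa, Tpi1, Gapdh, Pgk1, Pkm, Hif1a, Egln3, Bnip3, P4ha1, Higd1a and Mif. Among 12536 genes compared in the same way, 3.78% were highest there in both libraries. Basophil-like cells, with 27 and 23 cells, held 3 (Slc2a3, Vegfa and Ddit4, background 2.67%) and mast cell-like cells 2 (Hk1 and Ndrg1, background 8.4%). Another 6 classes held 1 gene each in both libraries: non-classical monocyte-like cells (Bnip3l, background 3.84%), DC2-like cells (Aldoc, 1.36%), DC1-like cells (Pfkp, 2.87%), mature dendritic cell-like cells (Pfkfb3, 4.72%), DETC-like cells (Egln1, 10.2%) and ILC2-like cells (Hilpda, 1.34%). Macrophage-like cells held none (background 5.43%). The same class was highest in both libraries for 23 of the 32 genes, against 55.9% of all genes compared.

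When the isotype control library was ranked alone over the 18 classes with at least 20 cells, Treg-like cells were highest for 9 genes (background 5.64%) and neutrophil-like cells for 8 (background 5.96%). The neutrophil-like cells, absent from the ranking of both libraries, took Pgk1, Pkm and Bnip3 from Treg-like cells. The heat map of levels shows Egln3 higher in each of the 5 lymphoid columns of the 10 larger classes than in the 5 myeloid and mast columns. Pfkfb3 is highest in the mature dendritic cell-like column and Ddit4 in the basophil-like column. Ddit4 is also dark in Treg-like cells in both panels and in non-classical monocyte-like cells after anti-Gr-1.

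**Figure D2:**
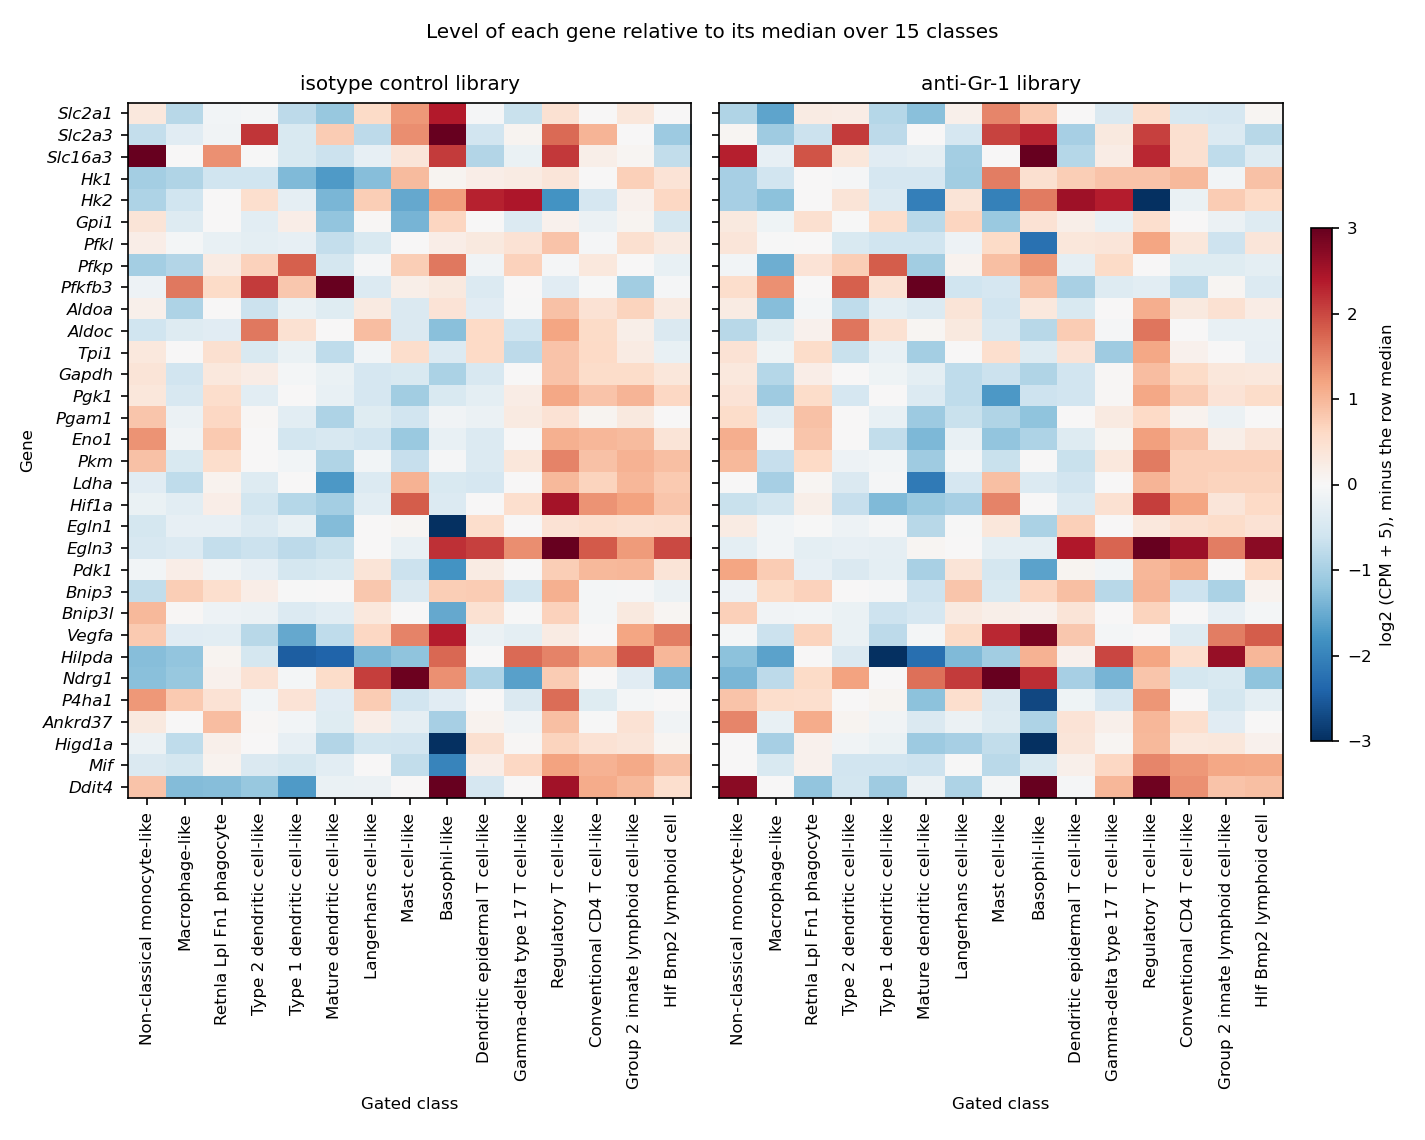
Each row is 1 of the 32 genes and each column 1 of 15 gated classes, with the isotype control library on the left and the anti-Gr-1 library on the right; colour gives log2 (CPM + 5) minus the median of the row, saturating at 3 on either side. Treg-like cells are highest in both panels for 12 of the 32 rows.

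The carriers had different leading classes. Slc2a1, the widely used glucose carrier, was highest of the 10 larger classes in mast cell-like cells at 78.8 and 65.8 CPM, with 41.6 and 31.98 in Treg-like cells and 14.0 and 3.56 in macrophage-like cells. Slc2a3, a high-affinity glucose carrier, stood at 82.5 and 67.7 in DC2-like cells, 59.6 and 66.0 in Treg-like cells and 46.9 and 64.4 in mast cell-like cells. It did not exceed 15.9 CPM in γδ type 17 T cell-like cells, Retnla Lpl Fn1 phagocytes, macrophage-like, DC1-like and DETC-like cells and Hlf Bmp2 lymphoid cells of either library. Slc16a3, the lactate exporter, reached 94.6 and 76.6 in Treg-like cells and 54.4 and 58.1 in Retnla Lpl Fn1 phagocytes, with 7.43 and 4.48 in DETC-like cells. In neutrophil-like cells of the isotype control library the 3 genes stood at 137, 387 and 798 CPM.

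Hexokinase 2 (Hk2) was highest in both γδ T classes and lowest in Treg-like cells. Its level was 734 and 657 in γδ type 17 T cell-like cells, 681 and 748 in DETC-like cells, 208 and 190.5 in Hlf Bmp2 lymphoid cells, 91.7 and 107 in CD4 T cell-like cells and 34.99 and 11.3 in Treg-like cells. In the myeloid and mast classes it was 189.6 and 164 in DC2-like cells, 133 and 125 in Retnla Lpl Fn1 phagocytes, 109 and 93.3 in DC1-like cells, 85.7 and 50.3 in macrophage-like cells and 42.5 and 27.05 in mast cell-like cells. The highest of the 10 classes was 21.0 times the lowest in the isotype control and 66.0 times in the anti-Gr-1 library, where the Treg-like level rests on 17 UMIs. Both γδ T classes lay above every other class with at least 20 cells in both libraries. Smaller classes had 323 and 378 in basophil-like cells, 223 and 163 in Langerhans cell-like cells, 146 and 214 in ILC2-like cells, 67.2 and 59.6 in non-classical monocyte-like cells and 48.6 and 26.1 in mature dendritic cell-like cells. It was 192 in neutrophil-like cells, 132 in classical monocyte-like cells and 0 in B cell-like cells (isotype control), and 167 in eosinophil-like cells (anti-Gr-1). No Hk2 UMI was found in the 26 B cell-like cells of the isotype control library, which allows up to 39.7 CPM by the Poisson interval. The other hexokinase, Hk1, followed another order: 82.2 and 72.8 in mast cell-like cells, 53.4 and 44.0 in Treg-like cells and 46.8 and 39.9 in DETC-like cells, down to 12.97 and 14.04 in DC1-like cells.

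Gpi1, which converts glucose 6-phosphate to fructose 6-phosphate, varied least of the early enzymes printed in full. It stood at 229.8 and 246 in Treg-like cells, 209.6 and 196 in DETC-like cells, 185 and 173 in CD4 T cell-like cells, 157 and 147 in γδ type 17 T cell-like cells and 144 and 131 in Hlf Bmp2 lymphoid cells. Its level was 239.5 and 253 in DC1-like cells, 209 and 245 in Retnla Lpl Fn1 phagocytes, 166 and 171 in DC2-like cells, 159 and 158 in macrophage-like cells and 76.6 and 76.9 in mast cell-like cells. Mast cell-like cells were the lowest of the 10 in both libraries, and the highest was 3.12 and 3.29 times that. In smaller classes the values were 329.8 and 234 in basophil-like cells, 274 and 213 in non-classical monocyte-like cells, 222 and 152 in ILC2-like cells, 214 and 271 in Langerhans cell-like cells and 89.6 and 96.04 in mature dendritic cell-like cells. They were 233 in neutrophil-like cells, 228 in classical monocyte-like cells and 118 in B cell-like cells (isotype control), and 262 in eosinophil-like cells (anti-Gr-1).

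Phosphofructokinase commits the sugar to glycolysis, and its platelet form Pfkp was highest of the 10 classes in DC1-like cells. Pfkp stood at 423 and 393 in DC1-like cells, 201 and 205 in mast cell-like cells, 194 and 184 in DC2-like cells, 141 and 145 in Retnla Lpl Fn1 phagocytes and 62.2 and 35.6 in macrophage-like cells. Lymphoid classes had 195 and 163 in γδ type 17 T cell-like cells, 149.6 and 82.1 in CD4 T cell-like cells, 115 and 108 in Treg-like cells, 109 and 88.7 in DETC-like cells and 101 and 87.9 in Hlf Bmp2 lymphoid cells. The DC1-like level was above those of the other larger classes beyond the counting intervals in both libraries. Smaller classes had 366 and 280.0 in basophil-like cells, 118 and 82.5 in ILC2-like cells, 115 and 116 in Langerhans cell-like cells, 80.5 and 49.4 in mature dendritic cell-like cells and 55.7 and 102 in non-classical monocyte-like cells. Pfkp was 158 in neutrophil-like cells, 151 in classical monocyte-like cells and 21.5 in B cell-like cells (isotype control), and 47.7 in eosinophil-like cells (anti-Gr-1). The liver form Pfkl was highest in Treg-like cells, at 36.9 and 48.6, and lowest of the 10 in DC2-like cells in the isotype control and DC1-like cells in the anti-Gr-1 library, at 13.9 and 10.7.

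Pfkfb3, which makes the activator of phosphofructokinase, stood far above all other classes in mature dendritic cell-like cells: 532 (495 to 571) and 561 (522 to 601) CPM, from 766 and 794 UMIs. These were 4.65 and 6.34 times the next class of 15, DC2-like cells. The larger myeloid and mast classes had 114 and 88.4 in DC2-like cells, 77.5 and 64.9 in macrophage-like cells, 43.3 and 32.2 in DC1-like cells, 36.3 and 22.01 in Retnla Lpl Fn1 phagocytes and 26.5 and 13.99 in mast cell-like cells. The lymphoid classes had 22.7 and 15.6 in γδ type 17 T cell-like cells, 22.5 and 10.9 in CD4 T cell-like cells, 21.98 and 15.2 in Hlf Bmp2 lymphoid cells, 17.02 and 16.7 in Treg-like cells and 15.7 and 8.74 in DETC-like cells. The order was therefore mature dendritic, DC2-like and macrophage-like in both libraries. In the remaining smaller classes the level was 28.7 and 45.6 in basophil-like cells, 20 and 34.1 in non-classical monocyte-like cells, 16.01 and 12.8 in Langerhans cell-like cells and 8.44 and 23.2 in ILC2-like cells. It was 30.8 in neutrophil-like cells, 75.99 in classical monocyte-like cells and 43.1 in B cell-like cells (isotype control), and 23.8 in eosinophil-like cells (anti-Gr-1).

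Aldoa, the main aldolase, was highest in Treg-like cells, at 552 (521 to 584) and 752 (709 to 797) CPM. The other lymphoid classes had 400.4 and 430.0 in CD4 T cell-like cells, 358 and 407 in Hlf Bmp2 lymphoid cells, 293 and 348 in γδ type 17 T cell-like cells and 232 and 254 in DETC-like cells. The myeloid and mast classes had 297 and 335 in Retnla Lpl Fn1 phagocytes, 259 and 282 in DC1-like cells, 221 and 231 in mast cell-like cells, 188 and 202 in DC2-like cells and 154 and 141 in macrophage-like cells. Macrophage-like cells were lowest of the 10 in both libraries. Smaller classes had 477 and 479.5 in ILC2-like cells, 394 and 436 in basophil-like cells, 359.5 and 458 in Langerhans cell-like cells, 333 and 413 in non-classical monocyte-like cells and 232 and 259 in mature dendritic cell-like cells. Aldoa was 449 in neutrophil-like cells, 285 in classical monocyte-like cells and 248 in B cell-like cells (isotype control), and 619.6 in eosinophil-like cells (anti-Gr-1). Aldoc, another aldolase gene, led in DC2-like cells at 30.6 and 22.3, with 22.2 and 22.0 in Treg-like cells and 2.84 and 3.70 in γδ type 17 T cell-like cells. Tpi1, which interconverts the products of aldolase, was highest in Treg-like cells at 195 and 276 and lowest in γδ type 17 T cell-like cells at 59.3 and 55.3. The plot of alternative forms sets these paralogues side by side.

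**Figure D3:**
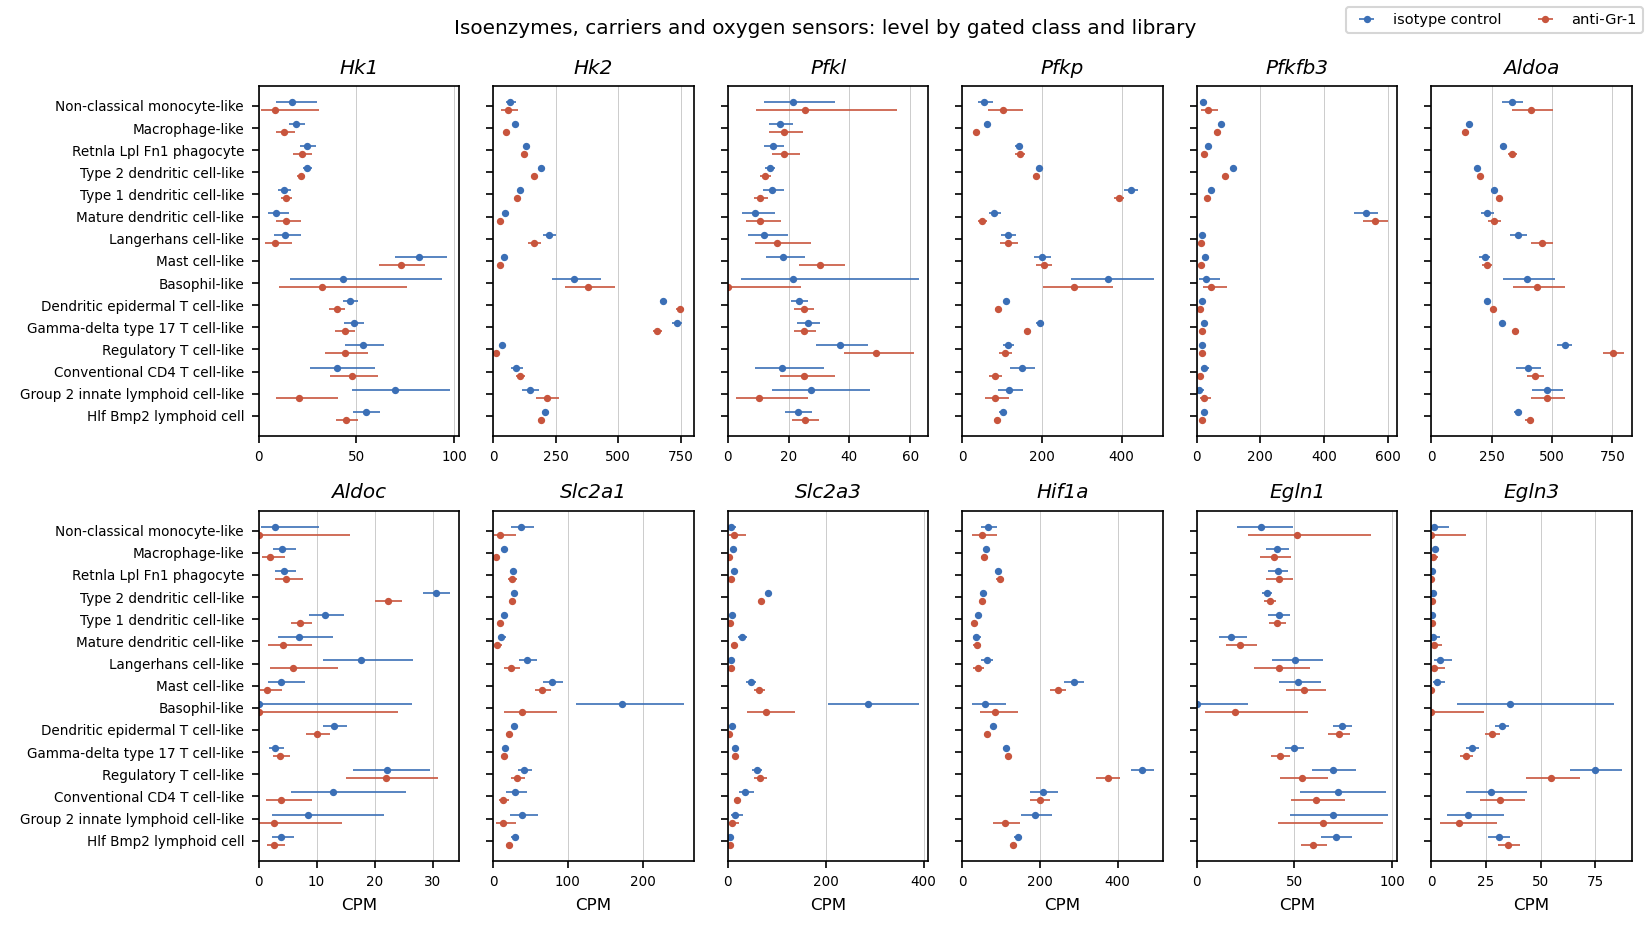
Levels (x axes, CPM, a separate scale in each panel) of 12 genes that are alternative forms or regulators of a step, in 15 gated classes (y axis), for both libraries with exact Poisson 95% intervals. Hk2 is highest in the γδ T classes and near its lowest in Treg-like cells, where Hk1 stands at 53.4 and 44.0 CPM; Pfkfb3 is highest in mature dendritic cell-like cells and Pfkp in DC1-like cells.

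The 6 lower glycolytic genes summed to 2551 and 3151 CPM in Treg-like cells, 1989 and 2324 in CD4 T cell-like cells, 1840 and 2057 in Hlf Bmp2 lymphoid cells and 859 and 856 in macrophage-like cells. Gapdh gave the largest share of all UMIs of the 32 genes, 15.92% and 18.48%. Ldha gave 8.41% and 8.80%, and Pkm 6.64% and 6.28%. Processed copies of Gapdh, Pgk1, Pgam1, Ldha and Mif exist in the genome, and how reads that match several places were counted is not given in the sources used here, so their levels are uncertain to that extent.

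Gapdh, which oxidises glyceraldehyde 3-phosphate, stood at 918 and 1267 in Treg-like cells, 733 and 989 in CD4 T cell-like cells, 635 and 829 in Hlf Bmp2 lymphoid cells, 502 and 676 in γδ type 17 T cell-like cells and 357 and 442 in DETC-like cells. It was 630.1 and 757 in Retnla Lpl Fn1 phagocytes, 588 and 660.0 in DC2-like cells, 482 and 604 in DC1-like cells, 362 and 421 in mast cell-like cells and 337 and 365 in macrophage-like cells. Treg-like cells were highest and macrophage-like cells lowest of the 10 in both libraries. Smaller classes had 737 and 830.1 in ILC2-like cells, 654 and 826 in non-classical monocyte-like cells, 438 and 539 in mature dendritic cell-like cells, 355 and 389.8 in Langerhans cell-like cells and 258 and 352 in basophil-like cells. Its level was 740.2 in neutrophil-like cells, 679 in classical monocyte-like cells and 269 in B cell-like cells (isotype control), and 572 in eosinophil-like cells (anti-Gr-1). Pgk1, which makes the first ATP of the pathway, ranged from 55.7 and 36.8 in mast cell-like cells to 274 and 306 in Treg-like cells. Pgam1, a mutase, ranged from 50.2 and 41.5 in mast cell-like cells to 122 and 157 in Retnla Lpl Fn1 phagocytes, and the enolase Eno1 from 31.98 and 37.3 in mast cell-like cells to 164 and 222 in Treg-like cells. The copy Eno1b was counted apart, at 1.85 and 1.65 CPM over all kept cells.

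Pkm, pyruvate kinase, was highest of the 15 classes ranked in both libraries in Treg-like cells at 522 (492 to 554) and 600.2 (562 to 641). The other lymphoid classes had 351 and 334 in Hlf Bmp2 lymphoid cells, 344 and 337 in CD4 T cell-like cells, 233 and 254 in γδ type 17 T cell-like cells and 137 and 125 in DETC-like cells. It was 270.0 and 309 in Retnla Lpl Fn1 phagocytes, 184 and 181 in DC2-like cells, 173 and 189 in DC1-like cells, 133 and 124 in macrophage-like cells and 111 and 125 in mast cell-like cells. DETC-like cells lay near macrophage-like and mast cell-like cells for Pkm, while their Hk2 level was among the highest. Smaller classes had 386 and 333 in ILC2-like cells, 343 and 400.2 in non-classical monocyte-like cells, 179 and 202 in basophil-like cells, 175 and 190.2 in Langerhans cell-like cells and 97.2 and 93.9 in mature dendritic cell-like cells. Pkm was 548 in neutrophil-like cells, 435 in classical monocyte-like cells and 108 in B cell-like cells (isotype control), and 262 in eosinophil-like cells (anti-Gr-1).

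Ldha, the lactate dehydrogenase subunit favoured in glycolytic cells, set mast cell-like cells apart from the rest of the lower pathway. Its level was 589 and 578 in mast cell-like cells, 309 and 321 in Retnla Lpl Fn1 phagocytes, 287 and 298 in DC1-like cells, 217 and 225 in DC2-like cells and 167 and 152 in macrophage-like cells. The lymphoid classes had 566 and 629 in Treg-like cells, 492 and 495 in Hlf Bmp2 lymphoid cells, 454 and 509 in CD4 T cell-like cells, 286 and 307 in γδ type 17 T cell-like cells and 199 and 204 in DETC-like cells. Of the 10 larger classes, mast cell-like cells and Treg-like cells were the leading pair in both libraries, in opposite order, and their intervals overlapped in the isotype control library, 589 (555 to 626) and 566 (535 to 599). Mast cell-like cells were the lowest of the 10 for Pgk1, Pgam1, Eno1 and, in the isotype control library, Pkm. Smaller classes had 570.0 and 489.8 in ILC2-like cells, 223 and 311 in non-classical monocyte-like cells, 213 and 214 in Langerhans cell-like cells, 208 and 228 in basophil-like cells and 83.3 and 67.1 in mature dendritic cell-like cells. Ldha was 308 in neutrophil-like cells, 296 in classical monocyte-like cells and 139.9 in B cell-like cells (isotype control), and 739 in eosinophil-like cells (anti-Gr-1).

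Among the oxygen-sensing genes, Hif1a, which encodes HIF-1α, was highest in Treg-like cells at 463 (435 to 493) and 375 (345 to 407) CPM. Mast cell-like cells had 287 and 246, CD4 T cell-like cells 207 and 199, and DC1-like cells 40.8 and 30.7, the lowest of the 10 in both libraries. Egln3, an oxygen-dependent hydroxylase gene that HIF itself induces, separated the larger lymphoid classes from the larger myeloid ones. It stood at 74.7 and 54.6 in Treg-like cells, 32.1 and 27.6 in DETC-like cells, 30.7 and 35.2 in Hlf Bmp2 lymphoid cells, 27.3 and 31.3 in CD4 T cell-like cells and 18.7 and 15.7 in γδ type 17 T cell-like cells. The 5 larger myeloid and mast classes lay at or below 2.76 CPM in both libraries. The split did not extend to all smaller classes. In the isotype control, Egln3 stood at 41.1 in the 139 neutrophil-like cells and 35.9 in the 27 basophil-like cells. Only Treg-like cells were higher there. After anti-Gr-1, basophil-like cells gave 0 Egln3 UMIs. The related hydroxylase Egln1 varied little, from 35.9 and 37.5 in DC2-like cells to 74.5 and 72.7 in DETC-like cells.

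The other hypoxia genes showed several patterns. Hilpda, which blocks fat breakdown in lipid droplets, stood at 262 and 322 in γδ type 17 T cell-like cells, 223 and 183 in Treg-like cells and 166 and 111 in CD4 T cell-like cells. It was 9.73 and 4.199 in DC1-like cells, and 293 and 500.1 in ILC2-like cells. Ndrg1, a gene of stress and differentiation, was highest in mast cell-like cells at 476 and 541, with 101 and 75.9 in Treg-like cells and 15.5 and 12.3 in γδ type 17 T cell-like cells. P4ha1, a collagen prolyl hydroxylase subunit, led in Treg-like cells at 102 and 77.9, ahead of the next of the 10, macrophage-like cells at 52.5 and 42.8. Mif, a cytokine, stood at 305 and 408 in Treg-like cells, 269 and 367 in CD4 T cell-like cells, 241 and 325 in Hlf Bmp2 lymphoid cells and 74.4 and 81.1 in mast cell-like cells.

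Vegfa, the endothelial growth factor gene, was low in most classes. The lymphoid classes had 47.2 and 28.9 in Hlf Bmp2 lymphoid cells, 16.1 and 4.66 in Treg-like cells, 12.9 and 2.35 in CD4 T cell-like cells, 10.8 and 11.8 in DETC-like cells and 9.55 and 4.24 in γδ type 17 T cell-like cells. It was 45.2 and 41.5 in mast cell-like cells, 9.45 and 10.4 in Retnla Lpl Fn1 phagocytes, 9.07 and 1.19 in macrophage-like cells, 4.97 and 3.398 in DC2-like cells and 1.14 and 0.5999 in DC1-like cells. Hlf Bmp2 lymphoid cells and mast cell-like cells were the highest of the 10 in both libraries, in opposite order. Smaller classes had 86.04 and 65.1 in basophil-like cells, 35.9 and 23.2 in ILC2-like cells, 25.7 and 4.26 in non-classical monocyte-like cells, 22.4 and 9.34 in Langerhans cell-like cells and 5.55 and 4.24 in mature dendritic cell-like cells. Vegfa was 140.5 in neutrophil-like cells, 63.1 in classical monocyte-like cells and 21.5 in B cell-like cells (isotype control), and 548 in eosinophil-like cells (anti-Gr-1). The eosinophil-like value rests on 35 cells.

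Ddit4, an inhibitor of mTORC1 that stress and glucocorticoids induce, was highest in basophil-like cells, at 688 (558 to 841) and 742 (612 to 892) CPM from 96 and 114 UMIs. That was 4.40 and 5.54 times the next class, Treg-like cells. The lymphoid classes had 157 and 134 in Treg-like cells, 56.3 and 43 in CD4 T cell-like cells, 34.8 and 29.5 in Hlf Bmp2 lymphoid cells, 23.5 and 31.9 in γδ type 17 T cell-like cells and 14.9 and 13.1 in DETC-like cells. The larger myeloid and mast classes had 23.2 and 12.6 in mast cell-like cells, 7.81 and 7.59 in DC2-like cells, 6.68 and 3.104 in Retnla Lpl Fn1 phagocytes, 6.48 and 13.5 in macrophage-like cells and 3.62 and 3.84 in DC1-like cells. All 5 lymphoid classes except DETC-like cells lay at or above 23.5 CPM. The remaining smaller classes had 50.7 and 28.4 in ILC2-like cells, 45.7 and 115 in non-classical monocyte-like cells, 20.02 and 4.67 in Langerhans cell-like cells and 19.4 and 11.3 in mature dendritic cell-like cells. It was 23.99 in neutrophil-like cells, 7.75 in classical monocyte-like cells and 10.8 in B cell-like cells (isotype control), and 23.8 in eosinophil-like cells (anti-Gr-1). Of the genes not yet given, Bnip3l (a mitophagy receptor) ranged over the 10 classes from 84.1 and 75.5 in DC1-like cells to 188 and 191 in Treg-like cells and its relative Bnip3 from 8.90 and 6.02 in γδ type 17 T cell-like cells to 37.4 and 35.3 in Treg-like cells. Higd1a, a mitochondrial protein gene, ranged from 54.8 and 48.7 in macrophage-like cells to 157 and 206 in Treg-like cells. Pdk1, a kinase that holds pyruvate back from mitochondria, and Ankrd37 stayed at or below 28.9 and 15.8 CPM in each of the 10 classes.

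Between the libraries, the summed level differed little. Over the 10 larger classes together it was 3290 CPM in the isotype control library and 3460 after anti-Gr-1, a ratio of 1.05, and 1.04 when the anti-Gr-1 classes were weighted as in the isotype control library. By class, the largest ratio was that of Treg-like cells, 1.13 (1.098 to 1.16), followed by Retnla Lpl Fn1 phagocytes, 1.11 (1.09 to 1.14). Ratios in Hlf Bmp2 lymphoid cells (1.06), γδ type 17 T cell-like cells (1.06), CD4 T cell-like cells (1.05), DC1-like cells (1.04), DETC-like cells (1.03), mast cell-like cells (1.02) and DC2-like cells (1.01) lay nearer to 1. Macrophage-like cells were the 1 class below 1, at 0.931 (0.8996 to 0.963). The sum rested in part on genes that were themselves higher. Without Gapdh, Aldoa, Eno1, Pkm, Ldha and Tpi1 the Treg-like ratio was 0.975 and that of Retnla Lpl Fn1 phagocytes 1.07. These 6 were chosen with earlier results known, are not the 6 most abundant, and 5 of them were higher in at least 7 of the 10 classes, so that the choice itself lowers what is left. With a trimmed-mean (TMM) scaling factor between the libraries in each class it was 1.29 in Treg-like cells and below 1 only in macrophage-like cells.

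**Figure D4:**
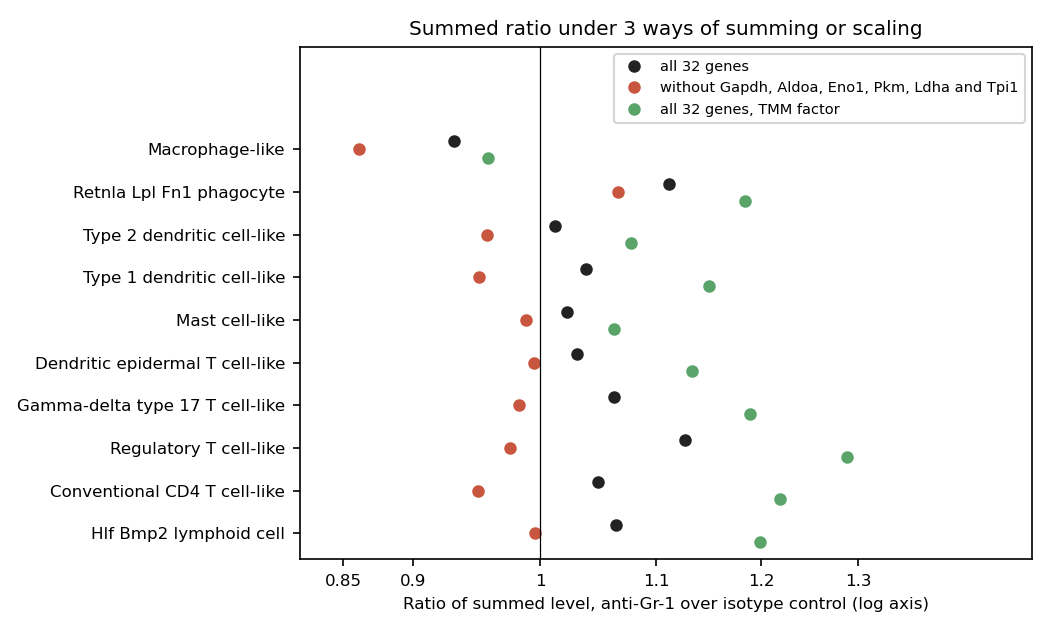
Ratio of the summed level, anti-Gr-1 over isotype control (x axis, log scale), in 10 gated classes (y axis), for all 32 genes, for 26 genes without the 6 named in the key, and for all 32 with the TMM factor. Treg-like cells lie at 1.13 with all genes, 0.975 without the 6, most of which were higher in most classes, and 1.29 with the TMM factor; macrophage-like cells are below 1 in all 3 settings.

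By role, the lower glycolytic sum was higher in the anti-Gr-1 library with an interval above 1 in 8 of the 10 classes, at ratios from 1.07 (1.06 to 1.09) in DC2-like cells to 1.24 (1.19 to 1.28) in Treg-like cells. It was 1.03 (0.975 to 1.09) in mast cell-like cells and 0.998 (0.946 to 1.05) in macrophage-like cells. The upper glycolytic sum had ratios from 0.865 (0.813 to 0.9204) in macrophage-like cells to 1.21 (1.15 to 1.28) in Treg-like cells. The 14 oxygen-sensing and hypoxia genes summed to ratios from 0.925 (0.878 to 0.974) in DC1-like cells to 1.09 (1.06 to 1.13) in γδ type 17 T cell-like cells. The median log2 ratio of all genes compared was below 0 in every class. It was lowest in DETC-like (-0.11), γδ type 17 T cell-like (-0.13), Treg-like (-0.16), CD4 T cell-like (-0.13) and Hlf Bmp2 (-0.13) cells. A ratio of 1 thus lies above the middle gene there. That middle depended on level. Genes at a mean of 500 CPM or more had medians above 0 in these classes, at 0.078, 0.047, 0.096, 0.096 and 0.071. Medians over the compared genes of the list were -0.07, -0.02, 0.02, 0.03 and -0.06 in these classes, -0.13 in macrophage-like cells (all genes -0.05) and 0.08 in Retnla Lpl Fn1 phagocytes (all genes -0.07).

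Single genes were called at 1.5-fold on the log2 (CPM + 5) scale, which understates the change of low genes, where both libraries together gave at least 50 UMIs in the class. Of 291 gene and class pairs so compared, 2 were higher and 18 lower in the anti-Gr-1 library, the 18 in 10 genes. With the TMM factor 11 were higher and 13 lower, and with the lowest class level of each gene subtracted as free RNA 33 and 22. The share of all genes called was not counted under these changes, so these counts have no background to be read against. Without these changes, none of the 60 pairs of lower glycolysis and none of the 25 of oxygen sensing were called. The carriers gave 6 lower calls of 26 pairs, upper glycolysis 7 lower and 1 higher of 82, and the other hypoxia genes 5 lower and 1 higher of 98. The share of all genes called lower was 3.93% in macrophage-like cells, 2.97% in Retnla Lpl Fn1 phagocytes, 0.686% in DC2-like, 1.77% in DC1-like, 3.81% in mast cell-like, 2.18% in DETC-like, 2.74% in γδ type 17 T cell-like, 9.32% in Treg-like, 13.3% in CD4 T cell-like and 3.39% in Hlf Bmp2 cells. The share called higher was 0.873%, 0.5%, 0.0457%, 0.256%, 1.37%, 0.151%, 0.362%, 1.52%, 3.43% and 0.615% in the same order. DC2-like cells had no call among 31 genes compared.

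**Figure D5:**
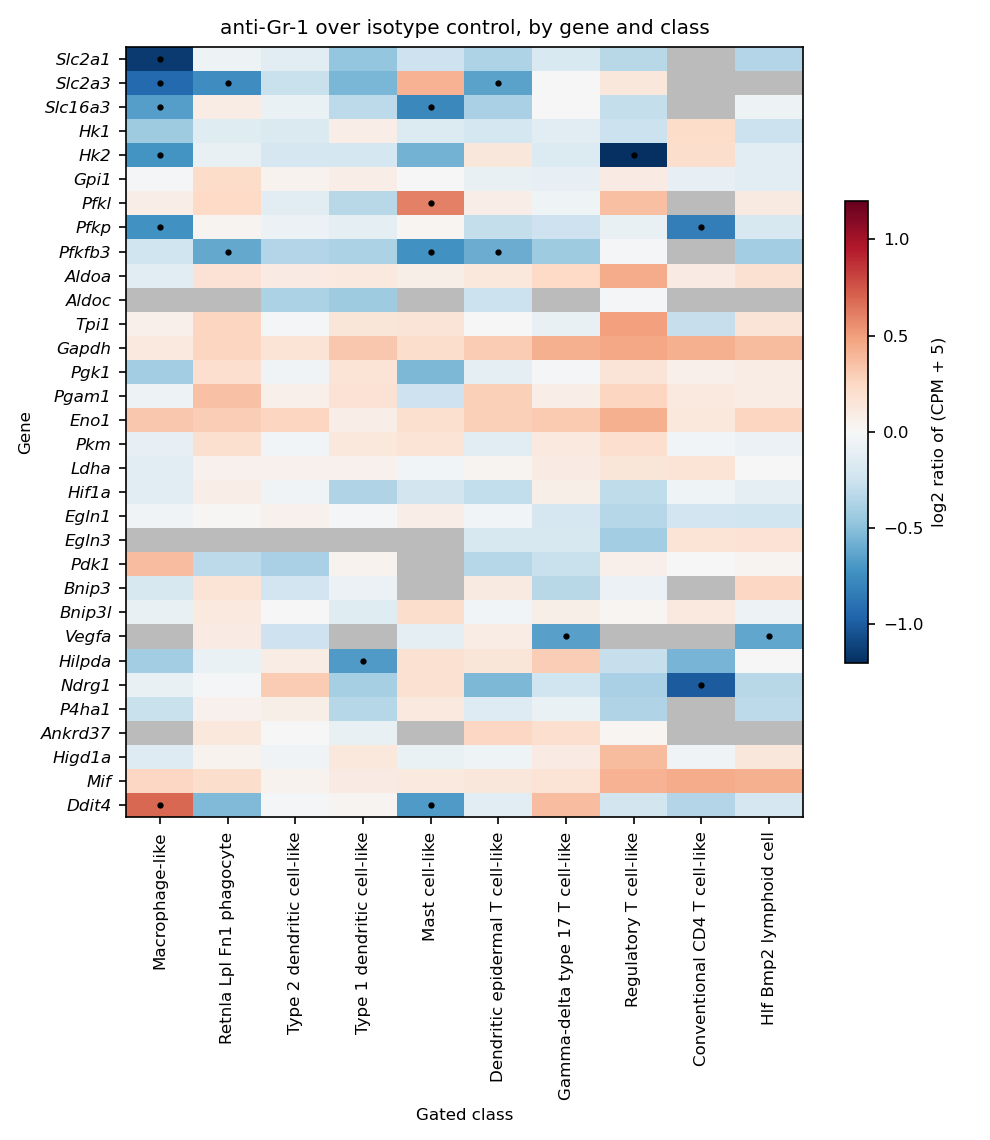
Colour gives the log2 ratio of (CPM + 5), anti-Gr-1 over isotype control, for 32 genes (rows) in 10 gated classes (columns), saturating near the ends of the scale; grey marks under 50 UMIs and dots mark the 20 pairs past 1.5-fold. The dots gather in the carriers and upper glycolysis, with 6 of the 20 in the macrophage-like column.

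Macrophage-like cells held 6 of the 20 calls, 5 lower and 1 higher of 28 genes compared. Of all genes compared in this class, 3.93% were called lower and 0.873% higher. All 3 carriers were lower. Slc2a1 stood at 14.03 (10.8 to 17.9) and 3.56 (1.63 to 6.76) CPM on 65 and 9 UMIs, a ratio of 0.254 (0.111 to 0.512). The Slc2a3 ratio was 0.299 (0.122 to 0.638) on 49 and 8 UMIs, with 13 of the isotype control UMIs in 1 cell, and that of Slc16a3 0.5303 (0.322 to 0.844). Hk2 stood at 85.7 (77.5 to 94.6) and 50.3 (41.9 to 59.8), a ratio of 0.587 (0.477 to 0.718), and Pfkp at 62.2 (55.2 to 69.8) and 35.6 (28.7 to 43.8), a ratio of 0.573 (0.447 to 0.729). Ddit4 was higher, at 6.48 (4.37 to 9.25) and 13.5 (9.32 to 18.8) on 30 and 34 UMIs, 10 of them in 1 isotype control cell. Summed, the carriers stood at 42.5 (36.8 to 48.9) and 16.2 (11.6 to 22.0) CPM. The lower glycolytic genes, by contrast, stood at 859 and 856.

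Genes of other cells differed in the same direction. Of 19 marker lists of other cell types, 17 were lower in macrophage-like cells after anti-Gr-1, with a median ratio of 0.619. Neutrophil markers were at 82.5 and 44.3 CPM, those of non-classical monocytes at 131 and 54.6, and T cell markers at 65.6 and 22.2. The median depth of a macrophage-like cell was 5784 and 9407 UMIs. The part of these in the lower carrier, Hk2 and Pfkp levels was not tested. In the other 9 classes 16 to 18 of the 19 lists were lower, with median ratios from 0.538 in mast cell-like cells to 0.860 in γδ type 17 T cell-like cells.

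In Treg-like cells the summed level of the glycolytic genes was higher and that of the oxygen-sensing genes lower in the anti-Gr-1 library. Of the 18 glycolytic genes 11 were above 0 and 7 below on the log2 ratio scale, and of the 3 oxygen-sensing genes all were below. The glycolytic genes summed to 4003 (3918 to 4089) and 4849.7 (4739 to 4962) CPM, a ratio of 1.21 (1.17 to 1.25). The oxygen-sensing genes summed to 608 (575 to 642) and 484 (449 to 520.1), a ratio of 0.796 (0.726 to 0.872). Ratios of Gapdh were 1.38 (1.29 to 1.47), of Aldoa 1.36 (1.25 to 1.48), of Tpi1 1.42 (1.23 to 1.63) and of Eno1 1.36 (1.16 to 1.58), none past 1.5-fold. The Hif1a ratio was 0.809 (0.728 to 0.899) and that of Egln3 0.731 (0.553 to 0.961). The median log2 ratio of all genes compared in this class was -0.16. In female and male cells the Hif1a ratio was 0.604 (0.474 to 0.763) and 0.907 (0.779 to 1.057). That of Egln1 was 1.051 (0.546 to 1.936) and 0.614 (0.407 to 0.917), and that of Egln3 0.607 (0.328 to 1.063) and 0.739 (0.492 to 1.104). Hk2 was the 1 gene called of 31, lower at 34.99 (27.5 to 43.9) and 11.3 (6.597 to 18.1) CPM, a ratio of 0.324 (0.179 to 0.554). Of all genes compared in this class, 9.32% were called lower. The Hk2 ratio was 0.143 (0.0166 to 0.558) in female and 0.707 (0.294 to 1.648) in male cells, where it was not past the fold. Markers of DETCs and other cell types were lower in 16 of 19 lists there (median ratio 0.628), and the isotype control UMIs of Hk2 came from 43 of 421 cells with at most 12 in 1 cell. Their part in the Hk2 difference was not tested.

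The remaining calls were spread over 9 genes and 7 classes. In CD4 T cell-like cells 2 of 22 genes compared were called lower, against 13.3% of all genes. Lower calls were 3 of 27 in mast cell-like cells (3.81% of all genes), 2 of 30 in Retnla Lpl Fn1 phagocytes (2.97%) and 2 of 32 in DETC-like cells (2.18%). They were 1 of 31 in γδ type 17 T cell-like cells (2.74%), 1 of 30 in DC1-like cells (1.77%) and 1 of 29 in Hlf Bmp2 lymphoid cells (3.39%). Pfkfb3 was lower in Retnla Lpl Fn1 phagocytes (0.606, 0.462 to 0.787), mast cell-like cells (0.529, 0.323 to 0.851) and DETC-like cells (0.557, 0.424 to 0.726). Slc2a3 was lower in Retnla Lpl Fn1 phagocytes (0.444, 0.261 to 0.724) and DETC-like cells (0.425, 0.278 to 0.637). Vegfa was lower in Hlf Bmp2 lymphoid cells, at 47.2 (41.1 to 53.8) and 28.9 (24.5 to 33.9) CPM (0.613, 0.496 to 0.757), and in γδ type 17 T cell-like cells (0.445, 0.282 to 0.685). In CD4 T cell-like cells Pfkp (0.549, 0.411 to 0.734) and Ndrg1 (0.459, 0.279 to 0.755) were lower, and in DC1-like cells Hilpda (0.432, 0.273 to 0.677). Mast cell-like cells had lower Slc16a3 (0.4998, 0.295 to 0.8298) and Ddit4 (0.544, 0.322 to 0.903) and higher Pfkl (1.67, 1.08 to 2.62, on 33 and 65 UMIs). The mast cell-like ratios of Slc16a3 and Ddit4 turned with sex: Slc16a3 was at 1.197 (0.289 to 4.708) in female and 0.5009 (0.2427 to 1.017) in male cells, and Ddit4 at 2.514 (0.9843 to 6.917) and 0.2296 (0.1038 to 0.4713). The female intervals held 1. The other 18 calls kept their direction under each of 10 other ways of choosing or scaling the cells. Of the 20 calls, only that of Slc2a1 in macrophage-like cells stayed past the fold under each of them.

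Direction was the same in all 10 classes for 3 of the 20 genes with at least 50 UMIs in each: Gapdh, Eno1 and Mif were higher in the anti-Gr-1 library in 10 of 10. Of 3893 genes with that depth, 1.95% were higher in all 10, and 7.12% with the TMM factor. Gapdh ratios ran from 1.09 (0.999 to 1.18) in macrophage-like cells to 1.38 (1.29 to 1.47) in Treg-like cells, those of Eno1 from 1.06 (0.9099 to 1.24) in DC1-like to 1.36 (1.16 to 1.58) in Treg-like cells and those of Mif from 1.03 (0.967 to 1.105) in DC2-like to 1.37 (1.14 to 1.64) in CD4 T cell-like cells. Under the other settings run, Gapdh was higher in 9 or 10 of the classes and Eno1 and Mif in 8 to 10. Eno1 and its copy Eno1b summed were higher in all 10 as well. Aldoa was higher in 9 of 10, all but macrophage-like cells. Slc2a1 and Pfkfb3 were lower in 10 of 10 classes, though not every class gave them 50 UMIs. Of the 3893 genes, 14.7% were lower in all 10, and 3.85% with the TMM factor, under which Slc2a1 and Pfkfb3 were each lower in 9.

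Over all kept cells, whatever their class, Slc16a3 had the lowest ratio of the 32, 0.630, and Gapdh the highest, 1.197. The Slc16a3 ratio was 0.788 over the 10 larger classes and 0.885 with these weighted as in the isotype control library. Neutrophil-like cells, where Slc16a3 was highest of the isotype control classes, numbered 139 and 9, and classical monocyte-like cells 240 and 15. Over all kept cells without the neutrophil-like and both monocyte-like classes, the Slc16a3 ratio was 0.733. The part of these classes in the ratio was not tested. Slc2a1 had 0.706 over all kept cells, 0.790 over the 10 classes and 0.804 reweighted. In the same order Pfkfb3 had 0.765, 0.694 and 0.749, and Gapdh 1.197, 1.22 and 1.21. Pfkp stood at 1.01 over the 10 classes and 0.908 reweighted.

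Other genes of metabolism and stress were read from lists over the same 10 classes. The share of all genes called lower ran from 0.686% in DC2-like to 13.3% in CD4 T cell-like cells. For higher calls it ran from 0.0457% to 3.43% in the same 2 classes. Whether the counts of the lists exceed these shares was not tested. Of 29 other glycolysis genes, 1 of 136 pairs compared was higher, Pdk2 in macrophage-like cells at 5.397 and 11.5 CPM, and 1 was lower, Eno3 in DC2-like cells at 28.7 and 15.5 CPM. Pfkm, the muscle-type phosphofructokinase, stood at 31.98 and 48.5 CPM in mast cell-like cells, a difference smaller than the fold used for calls. Of 28 other hypoxia and HIF genes, 2 of 161 pairs were higher and 7 lower, the latter including Bhlhe40 in macrophage-like cells (30.4 and 11.1) and Kdm3a in Treg-like cells (52.0 and 23.3). Treg-like cells gave 3 of the 7 lower calls, among 14 genes of that list compared there, and 9.32% of all genes were called lower in that class. The 7 pentose phosphate genes gave 1 lower of 67 pairs, and 18 genes of the citric acid cycle and respiratory chain 1 higher and 2 lower of 179. The 12 cell cycle genes gave 9 higher and 4 lower of 113, with Ube2c in macrophage-like cells at 9.71 and 25.3. The 12 immediate early and digestion genes gave 17 lower and none higher of 120, with Hspa1b in γδ type 17 T cell-like cells at 1023 and 522. Their sum was lower in Treg-like cells (7556 and 6598 CPM) and macrophage-like cells (32369 and 28275), and its part in the differences of the 32 genes was not tested.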

How the data were processed

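The data are single-cell RNA counts of live CD45+ skin cells, 1 library for each of 2 groups, grouped by the treatment label. The deposited values are raw UMI counts per gene and barcode, which the authors obtained from Cell Ranger 4.0.0, per the file headers. The genome was mm10, per the submitters' processing notes, and is written mms10 in the labels. Antibody tags were not used here.

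Of the barcodes, 19542 (isotype control) and 8047 (anti-Gr-1) passed a minimum of 500 UMIs and 200 genes and a limit of 10% for mitochondrial UMIs. Scrublet in scanpy 1.11.5 scored doublets; its automatic threshold removed 473 (5.88%) in the anti-Gr-1 library, and where it called 32.8%, above a limit of 25%, the 3055 highest scores were removed at 0.8% per 1000 barcodes. A cell entered a class when it held UMIs of 3 or 4 or more of the class's markers, key markers among them; cells with markers of a second lineage were set aside. The 32 genes, the marker lists and the other gene lists were chosen with earlier results of these data known, and the gate's thresholds were set after the data had been seen.

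UMIs were summed per class and library and divided by the class total. Classes with at least 20 cells in both libraries were ranked, and those with at least 100 in both were compared at 1.5-fold on log2 (CPM + 5) with a minimum of 50 UMIs. With 1 library a group no test was made. Values in each class with at least 20 cells in the library are printed for genes with at least 5% of the list's UMIs, for genes past the fold with at least 200 UMIs and for genes 2-fold above the next class in both libraries, and the rest by range; Slc2a1, Slc2a3, Slc16a3, Hk1, Hif1a, Egln3, Hilpda, Ndrg1, Mif and other single values outside that rule were chosen after they were seen. Aldoa has 2 entries in the files; the other entry, with 2 and 2 UMIs, was left out. Gene spans came from GENCODE M21 on mm10. Alternatives changed the gate, doublets, mixed cells, depth, weighting, thinning, total, TMM factor (edgeR 4.0.16, R 4.3.3), free RNA, sex, pseudocount, minimum and fold. The scripts used Python 3.11.15, numpy 2.4.6, scipy 1.17.1, pandas 2.3.3, anndata 0.12.19 and matplotlib 3.10.9 and were tested on simulated data.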

Additional observations from a re-analysis of the deposited data

Results flagged for a closer look

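Ratios in cells with Xist and no Y-linked UMIs (female) were set against those in cells with Y-linked and no Xist UMIs (male). A comparison was flagged where the 2 ratios lay on opposite sides of 1 with intervals that left out 1. Each sex also had to give at least 50 UMIs over both libraries. Of 330 comparisons, many of them below that minimum, 4 were flagged. Hilpda was flagged in Retnla Lpl Fn1 phagocytes (0.703 in female and 1.35 in male cells), DC2-like cells (0.728 and 1.23) and Hlf Bmp2 lymphoid cells (0.809 and 1.24), and Tpi1 in DETC-like cells (0.84 and 1.13). Hk2 in mast cell-like cells, at 2.155 (1.045 to 4.582) and 0.4553 (0.2575 to 0.7942), fell short only of that minimum. The ratio of the summed genes was 0.931 in macrophage-like cells, below 1, against ratios above 1 in Retnla Lpl Fn1 phagocytes (1.11), DC2-like (1.01), DC1-like (1.04), DETC-like (1.03), γδ type 17 T cell-like (1.06), Treg-like (1.13), CD4 T cell-like (1.05) and Hlf Bmp2 cells (1.06). With 1 library a group, none of these differences was tested.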

How the results depend on the processing

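Each library is 1 pool of mice, so every ratio compares 2 libraries and the counting intervals leave out the spread between mice. Depth limits rare classes most, where low levels rest on few UMIs. No paired analysis was possible because each group has 1 library. Thinning lowers depth to 1000 UMIs a cell, and the fold and minimum settings change which pairs are tested; for the other changes the cause was not tested. The settings without cell cycle UMIs, the Treg-like sum over the next class and the reweighting were added after the data were seen.

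Of 140 settings of the summed ratios, 16 crossed 1: 8 without 6 genes, 3 without cycling cells, 2 thinned and 1 each with equal weights, in male cells and with mixed cells kept. In macrophage-like cells (0.931) the ratio was 0.886 with cells weighted equally, 0.799 in female and 0.973 in male cells, and 0.861 without 6 genes (Gapdh, Aldoa, Eno1, Pkm, Ldha and Tpi1). In Retnla Lpl Fn1 phagocytes (1.11) it was 1.07 with equal weights, 1.05 thinned, 1.06 female, 1.14 male, 1.15 without cycling cells, 1.18 with the TMM factor, 1.27 after free RNA was subtracted and 1.07 without the 6. In DC2-like cells (1.01) it was 0.997 with mixed cells kept, 0.994 with equal weights, 0.985 thinned, 1.03 male, 0.997 without cycling cells, 1.08 with TMM, 1.11 less free RNA and 0.957 without the 6. In DC1-like cells (1.04) it was 1.004 thinned, 0.996 without cycling cells, 1.15 with TMM, 1.17 less free RNA and 0.9504 without the 6. In mast cell-like cells (1.02) it was 1.07 thinned, 1.06 female, 0.987 male, 1.06 with TMM, 1.11 less free RNA and 0.988 without the 6. In DETC-like cells (1.03) it was 1.06 thinned and in female cells, 1.13 with TMM, 1.13 less free RNA and 0.995 without the 6. In γδ type 17 T cell-like cells (1.06) it was 1.04 female, 1.04 without cycling cells, 1.19 with TMM, 1.16 less free RNA and 0.983 without the 6. In Treg-like cells (1.13) it was 1.08 with mixed cells kept, 1.07 with equal weights, 1.09 thinned, 1.19 female, 1.08 male, 1.07 without cycling cells, 1.29 with TMM, 1.2 less free RNA and 0.975 without the 6. In CD4 T cell-like cells (1.05) it was 1.099 with mixed cells kept, 0.992 thinned, 1.11 female, 1.22 with TMM, 1.12 less free RNA and 0.9498 without the 6. In Hlf Bmp2 lymphoid cells (1.06) it was 1.02 with equal weights, 1.01 thinned, 1.102 female, 0.965 without cycling cells, 1.1 with ribosomal, mitochondrial and Malat1 UMIs out of the total, 1.199 with TMM, 1.16 less free RNA and 0.996 without the 6.

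The 2 higher pairs became 1 with 1 more marker for each class, with mixed cells kept, with equal weights and in male cells, 0 when thinned, with a pseudocount of 20, a minimum of 200 UMIs or a 2-fold limit, 6 in female cells, 4 without cycling cells, 11 with TMM and 33 less free RNA. The 18 lower pairs became 9 when thinned, 11 without cycling cells, 4 with a pseudocount of 20, 5 with a minimum of 200 UMIs and 2 at 2-fold. The share of all genes called was not counted under any of these changes. The Treg-like sum over the next class was, in the isotype control library (1.37), 1.27 with 1 more marker, 1.31 with mixed cells kept, 1.31 female, 1.45 male, 1.49 without cycling cells, 1.27 without ribosomal, mitochondrial and Malat1 UMIs and 1.25 without the 6. In the anti-Gr-1 library (1.47) it was 1.402 with 1 more marker, 1.29 with mixed cells kept, 1.41 with equal weights, 1.41 female, 1.55 male, 1.34 without ribosomal, mitochondrial and Malat1 UMIs and 1.24 without the 6. The count of genes highest in Treg-like cells ranged from 10 to 12.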
